A study of Mus musculus with 18 samples.

Results

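Keratinocyte and epithelial genes were followed in lymphatic endothelial cells (LEC), which line lymphatic vessels, and blood vascular endothelial cells (BEC), which line blood vessels, isolated from mouse embryos. The list names 35 genes of keratin filaments, desmosomes, epithelial junctions, epithelial transcription and splicing control, and the cornified envelope. Of these, 33 had a row with a single gene symbol on the array among 19938 genes measured. Dsc1 had no such row, and Dsg1a shared its row with Dsg1b and Dsg1c. No member was removed for a low value.

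Total RNA was read on 18 arrays of the Affymetrix type Mouse Gene 1.0 ST, in 6 groups of 3 biological replicates. The groups were LEC at embryonic days E14.5, E16.5 and E18.5, and BEC at the same ages. Per the design text, LEC and BEC came from matching litters, 3 litters at each age. No genotype, strain, treatment or organ is given beyond embryonic tissue, and how the cells were separated is given only by citation of another publication. Values are log2 expression after RMA, so a difference of 1 is a 2-fold difference, with 3 arrays a group setting how precise they are. Differences carry limma's standard error (SE). Called means that limma's Benjamini-Hochberg adjusted p over the 19938 genes was under 0.05. Cells of another type within an isolate and RNA per cell cannot be told apart in such bulk samples, so a higher value may stand for either.

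Keratins are intermediate filament proteins of epithelial cells and work in pairs. Basal keratinocytes make keratins 5, 14 and 15, cells that leave the basal layer switch to keratins 1 and 10, and simple epithelia and the embryonic periderm make keratins 8, 18 and 19. Desmosomes tie these filaments to the cell border through desmosomal cadherins (Dsc and Dsg genes), which bind plakoglobin (Jup), plakophilins (Pkp genes) and desmoplakin (Dsp). The transcription factor p63 (Trp63) sets the basal epidermal state, and in late gestation the epidermis stratifies and forms the barrier proteins involucrin (Ivl) and loricrin (Lor). Plakoglobin is also a part of endothelial junctions, and desmoplakin has been described in those of lymphatic endothelium.

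The labelled cell types were largely borne out by their markers. The mean level of 8 endothelial markers, such as Cdh5 and Pecam1, was 9.60 to 10.33 on LEC arrays and 10.86 to 11.22 on BEC arrays. Esam, one of the 8, was at 5.05 to 7.19 on LEC arrays and 10.51 to 10.96 on BEC arrays and widened that gap. Its LEC minus BEC difference over the ages was -4.38, where the median of the list was -0.72. The mean of 7 lymphatic markers, such as Prox1 and Lyve1, was 10.32 to 11.09 on LEC arrays and 6.23 to 8.04 on BEC arrays. For comparison, the mean of the 33 epithelial members was 5.04 to 6.49 on LEC arrays and 4.67 to 5.61 on BEC arrays, where the median of all values of the table was 5.5. Of the members, 9 stayed below that median on all 18 arrays: Krt4, Krt18, Krt77, Dsc2, Cldn7, Grhl3, Ivl, Lor and Sbsn. Differences of such dim genes are small on this scale and their size is uncertain. The 6 arrays of E18.5 had narrower interquartile ranges (3.18 to 3.36) than the arrays of E14.5 (3.40 to 3.58) and E16.5 (3.54 to 3.64), which goes with every change toward E18.5, and its part in them was not tested.

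**Figure D1:**
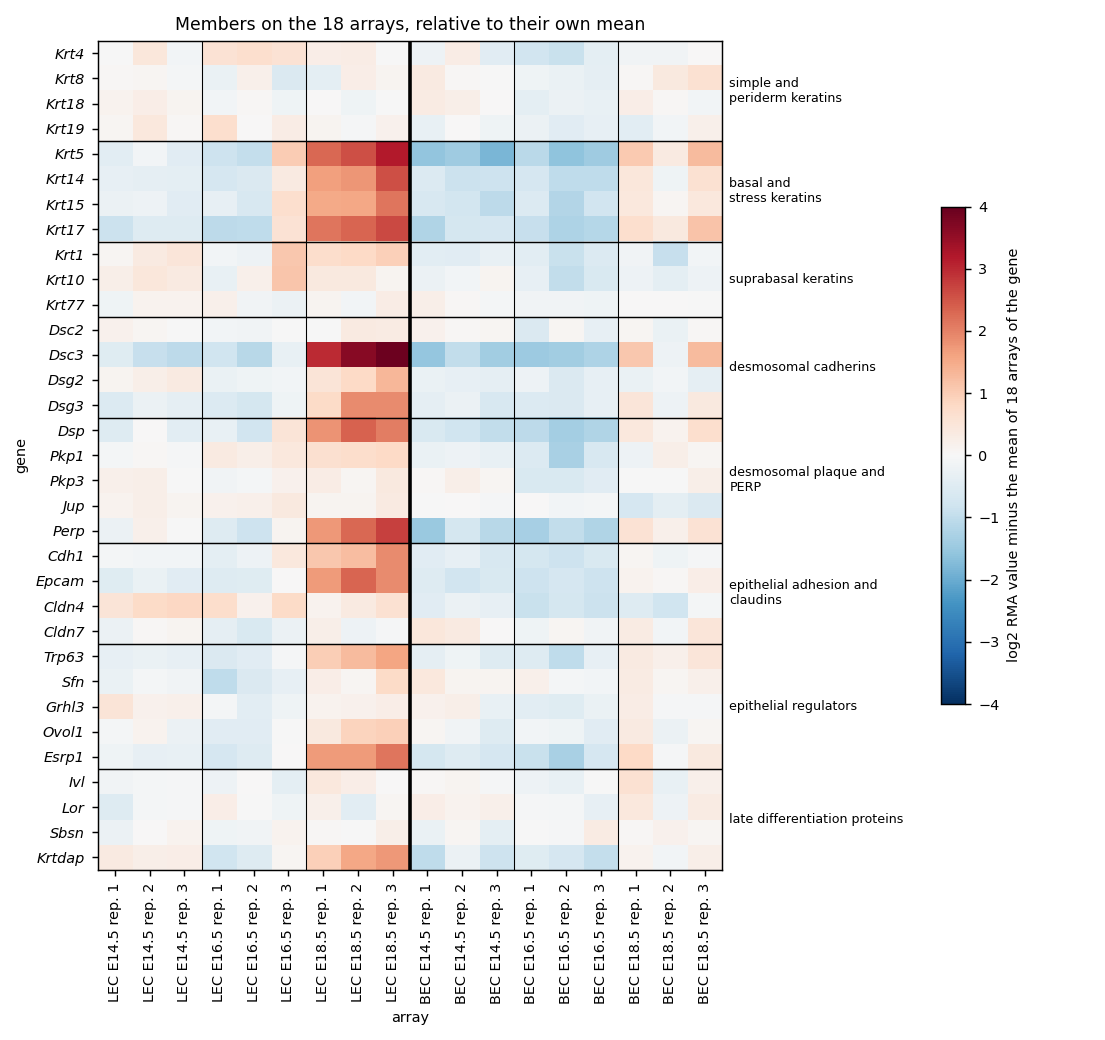
Heat map of the 33 measured members (rows, grouped by role) on the 18 arrays (columns, LEC left of BEC, ages in order). Colour is the log2 RMA value minus the gene's mean over the 18 arrays. The E18.5 columns are red for basal keratins, Dsc3, Dsp, Perp, Epcam, Trp63 and Esrp1, more so in LEC, and LEC E16.5 replicate 3 stands out from its group for several of them.

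All 4 basal and stress keratins rose with age in both isolates. On the LEC arrays Krt5, the type II keratin of basal cells, was at 6.87, 7.15 and 6.82 at E14.5, at 6.43, 6.33 and 8.29 at E16.5 and at 9.58, 9.85 and 10.44 at E18.5. On the BEC arrays it was at 5.69, 5.86 and 5.43, then 6.21, 5.65 and 5.85, then 8.33, 7.62 and 8.54. Each E18.5 group thus lay above both earlier ages of its cell type, and LEC lay above BEC at every age without overlap. From E14.5 to E18.5 Krt5 rose by 3.01 ± 0.37 (SE) in LEC (limma adjusted p = 2.9e-06) and by 2.51 ± 0.37 in BEC (adjusted p = 3.8e-05). Its partner Krt14, the type I keratin of basal cells, was at 5.73, 5.72 and 5.68, then 5.42, 5.49 and 6.42, then 7.70, 7.84 and 8.65 in LEC, and at 5.53, 5.22 and 5.26, then 5.41, 5.04 and 5.07, then 6.54, 5.92 and 6.70 in BEC. As for Krt5, the E18.5 arrays lay above the earlier ones of each isolate, and it rose by 2.35 ± 0.26 in LEC and by 1.05 ± 0.26 in BEC. Krt15, another basal keratin, rose by 2.02 ± 0.25 and 1.12 ± 0.25 in LEC and BEC. Krt17, a keratin of periderm, hair follicle and stressed epidermis, was at 4.69, 5.04 and 5.06, then 4.51, 4.55 and 6.15, then 7.69, 7.88 and 8.19 in LEC across the ages. BEC arrays had it at 4.36, 4.84 and 4.88, then 4.64, 4.32 and 4.42, then 6.23, 5.94 and 6.69. Its rise of 2.99 ± 0.31 in LEC and 1.59 ± 0.31 in BEC again came with no overlap of the E18.5 arrays with earlier ones of the cell type. Keratin genes are alike in sequence, so probes of Krt14, Krt16 and Krt17, or of Krt5 and the Krt6 genes, may bind each other's RNA.

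The DNA before an annotated start is shown for genes that rose together. For 4 of them the 250 bases upstream are printed beside those of Lor, which was called in no comparison of the main fit. The sequences are from RefSeq (GRCm38.p6), 5′ to 3′ on the gene's strand, and 17 of the 35 members had an entry. Capitals mark matches on either strand to AP-1 (TGANTCA), the grainyhead-like motif GRHL (AACCNGTT), the E-box CAGGTG bound by Snail and ZEB repressors, the GC box GGGCGG, the TATA box TATAAA or the p63 half-site consensus.
Krt5 (chr15:101712906-101713155, minus strand): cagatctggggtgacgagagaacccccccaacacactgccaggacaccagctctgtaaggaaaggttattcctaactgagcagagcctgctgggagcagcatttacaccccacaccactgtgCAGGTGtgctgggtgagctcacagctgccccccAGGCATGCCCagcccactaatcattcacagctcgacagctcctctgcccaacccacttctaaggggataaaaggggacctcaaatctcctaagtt
Krt14 (chr11:100206031-100206280, minus strand): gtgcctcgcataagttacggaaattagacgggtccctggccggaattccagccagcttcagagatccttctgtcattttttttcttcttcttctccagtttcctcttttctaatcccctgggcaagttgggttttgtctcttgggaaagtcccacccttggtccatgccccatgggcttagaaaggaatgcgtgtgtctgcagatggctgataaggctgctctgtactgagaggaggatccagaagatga
Dsp (chr13:38151044-38151293, plus strand): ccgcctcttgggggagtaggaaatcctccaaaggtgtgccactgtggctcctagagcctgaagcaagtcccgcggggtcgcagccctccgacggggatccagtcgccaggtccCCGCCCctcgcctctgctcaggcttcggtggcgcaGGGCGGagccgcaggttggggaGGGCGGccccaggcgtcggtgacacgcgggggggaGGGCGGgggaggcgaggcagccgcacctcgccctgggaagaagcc
Epcam (chr17:87635729-87635978, plus strand): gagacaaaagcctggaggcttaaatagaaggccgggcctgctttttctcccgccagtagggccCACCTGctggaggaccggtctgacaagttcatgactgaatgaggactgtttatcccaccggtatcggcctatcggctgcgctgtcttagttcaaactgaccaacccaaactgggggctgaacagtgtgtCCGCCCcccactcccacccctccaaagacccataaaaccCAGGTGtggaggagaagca
Lor (chr3:92083143-92083392, minus strand): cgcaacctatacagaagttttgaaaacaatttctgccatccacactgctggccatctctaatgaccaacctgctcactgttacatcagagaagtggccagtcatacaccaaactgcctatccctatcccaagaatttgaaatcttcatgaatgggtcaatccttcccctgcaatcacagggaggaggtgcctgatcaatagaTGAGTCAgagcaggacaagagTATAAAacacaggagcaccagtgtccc
Krt5 held an E-box and, 95 to 86 bases before the start, the p63 half-site AGGCATGCCC. Krt14 held none of the 6 motifs in this window, Dsp held 4 GC boxes, Epcam 2 E-boxes and a GC box, and Lor an AP-1 match and a TATA box. The Krt14 window lies before an internal start, within the span of the gene (chr11:100203162-100207510). It therefore does not show the DNA before the outermost start of Krt14. Of 32851 upstream windows of all genes, 17.2% held the E-box, 32.7% the GC box, 12.4% the TATA box, 6.7% AP-1, 1.8% the GRHL motif and 1.6% the p63 half-site. Among the 18 windows of members (Cldn7 has 2 starts), 10 held the E-box, 6 the GC box, 5 AP-1, 4 the TATA box, 1 the GRHL motif (Sfn) and 1 the p63 half-site. A match describes letters, not binding.

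Not all keratins moved this way. Krt1 and Krt10, the pair made once cells leave the basal layer, were not called for any age change in either isolate. Across the ages Krt10 was at 5.93, 6.16 and 6.07, then 5.40, 5.91 and 6.81, then 6.08, 6.10 and 5.81 in LEC. In BEC it was at 5.46, 5.58 and 5.80, then 5.38, 4.72 and 5.11, then 5.49, 5.29 and 5.51. Its highest LEC array was thus replicate 3 of E16.5, and E18.5 overlapped E14.5 in both isolates. Krt1 was at 5.14, 5.43 and 5.54, then 4.96, 4.86 and 6.15, then 5.78, 5.86 and 6.003 in LEC. The BEC arrays had Krt1 at 4.64, 4.60 and 4.78, then 4.65, 4.17 and 4.52, then 4.93, 4.15 and 4.96. From E14.5 to E18.5 it differed by 0.51 ± 0.26 in LEC (adjusted p = 0.13), and the BEC difference was 0.01 ± 0.26 (adjusted p = 0.99). Its LEC arrays of E18.5 all lay above those of E14.5. Without LEC E16.5 replicate 3 that LEC change was called (adjusted p = 0.032), as with only the compared groups (adjusted p = 0.016). Without that array Krt1 also rose by 0.97 from E16.5 to E18.5 in LEC (adjusted p = 0.0019). Krt10 then differed by -0.54 from E14.5 to E16.5 in BEC (adjusted p = 0.044). Krt77, a keratin of suprabasal and sweat duct cells, differed by 0.06 ± 0.13 and -0.06 ± 0.13 in LEC and BEC.

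The simple and periderm keratins had no call for the change from E14.5 to E18.5 either. Krt8 was at 6.12, 6.15 and 6.01, then 5.82, 6.27 and 5.49, then 5.68, 6.35 and 6.18 in LEC, and at 6.43, 6.13 and 6.05, then 5.92, 5.80 and 5.71, then 6.12, 6.47 and 6.69 in BEC. Its arrays overlapped between the isolates at every age. In BEC its mean rose from 5.808 at E16.5 to 6.425 at E18.5, a call lost with any of 4 single arrays left out (highest adjusted p = 0.084). Krt4, a keratin of mucosal epithelium and periderm, followed another course, with LEC and BEC parting at E16.5. It was at 4.44, 4.90 and 4.35, then 5.05, 5.12 and 5.04, then 4.72, 4.77 and 4.44 in LEC, and at 4.25, 4.75 and 4.01, then 3.68, 3.56 and 4.08, then 4.31, 4.32 and 4.47 in BEC. The E16.5 arrays differed by 1.30 ± 0.18 (adjusted p = 1e-05), and in BEC Krt4 rose by 0.60 ± 0.18 from E16.5 to E18.5 (adjusted p = 0.016). That rise lost its call without BEC E16.5 replicate 1 or 2, with quantile normalization again and with array weights (highest adjusted p = 0.086). Krt18, the partner of Krt8, fell by 0.50 ± 0.11 in BEC from E14.5 to E16.5 (adjusted p = 0.0088) and rose by 0.38 ± 0.11 to E18.5. This rise lost its call without BEC E16.5 replicate 1 or BEC E18.5 replicate 1. The same held at a common median, with quantile normalization again and with only the compared groups (highest adjusted p = 0.15). Krt19 was higher in LEC at E16.5 (0.65 ± 0.17, adjusted p = 0.006), a call lost without LEC E16.5 replicate 1 (adjusted p = 0.051).

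**Figure D2:**
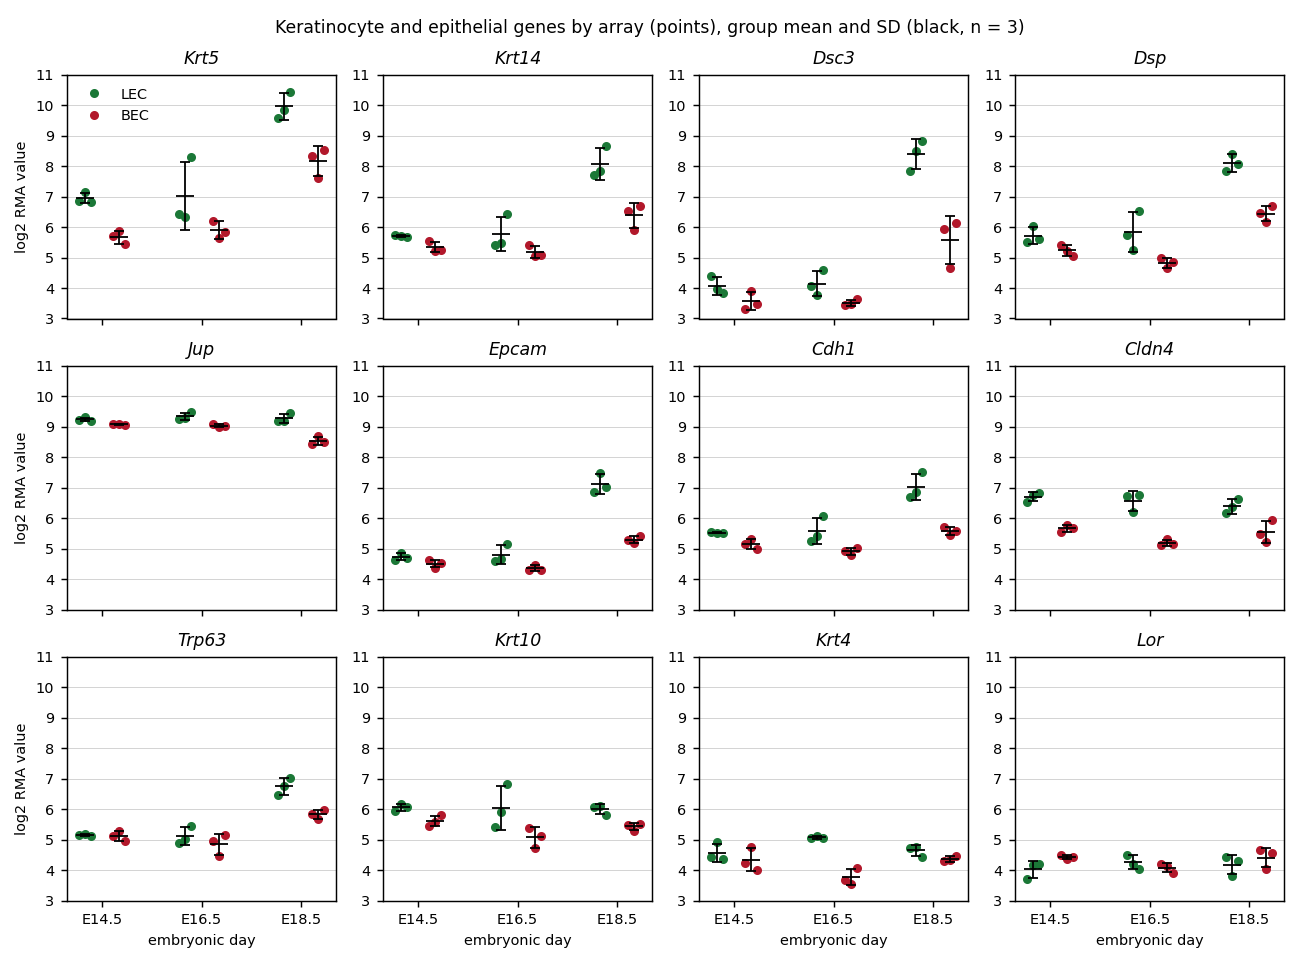
Log2 RMA values of 12 members on each array (points) at the 3 ages, LEC in green left of BEC in red, with the group mean and SD (black, n = 3). Krt5, Krt14, Dsc3 and Dsp lie highest at E18.5 in both isolates, Jup is lower in BEC at E18.5, Krt4 parts at E16.5 (LEC 5.04 to 5.12, BEC 3.56 to 4.08) and Lor stays between 3.71 and 4.64.

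Among desmosomal cadherins, Dsc3, the desmocollin of basal keratinocytes, had the largest age change of the 33 members in LEC. In LEC it was at 4.38, 3.97 and 3.83 at E14.5, at 4.07, 3.77 and 4.58 at E16.5 and at 7.85, 8.51 and 8.81 at E18.5. In BEC it was at 3.32, 3.90 and 3.48, then 3.43, 3.48 and 3.63, then 5.94, 4.66 and 6.13. All 6 arrays of E18.5 were above all 12 earlier ones, and the LEC arrays of E18.5 lay above those of BEC. In LEC the rise was 4.33 ± 0.31 (adjusted p = 4.1e-09), and in BEC 2.00 ± 0.31 (adjusted p = 5.8e-05). Dsg3, the desmoglein of the lower epidermis, rose by 1.89 ± 0.24 in LEC and differed by 0.62 ± 0.24 in BEC (adjusted p = 0.058). Dsg2, a desmoglein of simple epithelia, rose by 0.65 ± 0.15 in LEC (adjusted p = 0.0022) and differed by 0.07 ± 0.15 in BEC. Dsc2, the widely expressed desmocollin, was called in no comparison of the main fit and lay between 3.26 and 4.19. Some alternatives called it, as from E14.5 to E16.5 in BEC with array weights (-0.46, adjusted p = 0.0085). The row that the 3 Dsg1 genes share, which is outside the 33 and was not tested, was at 3.33 to 4.09 on LEC arrays of E14.5 and E16.5 and at 6.43, 7.39 and 7.44 at E18.5. Its BEC values were 3.15 to 3.89 at the earlier ages and 4.84, 4.14 and 5.33 at E18.5.

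Of the desmosomal plaque genes and Perp, Dsp and Perp rose in both isolates while Jup fell in BEC. Dsp, which anchors keratin, was at 5.504, 6.04 and 5.60, then 5.72, 5.26 and 6.54, then 7.84, 8.40 and 8.07 in LEC. Its BEC values were 5.41, 5.23 and 5.05, then 4.98, 4.65 and 4.84, then 6.46, 6.17 and 6.69. The E18.5 arrays overlapped no earlier array of their cell type, and the rise came to 2.39 ± 0.24 in LEC and 1.21 ± 0.24 in BEC. Perp, a membrane protein that p63 and p53 regulate and that desmosomes need, rose by 2.28 ± 0.25 and 1.56 ± 0.25. Jup was at 9.22, 9.30 and 9.20, then 9.26, 9.29 and 9.46, then 9.19, 9.19 and 9.43 in LEC. In BEC it was at 9.07, 9.09 and 9.04, then 9.10, 8.98 and 9.02, then 8.41, 8.68 and 8.49. The 3 BEC arrays of E18.5 were the lowest of the 18, and Jup differed by 0.03 ± 0.10 in LEC (adjusted p = 0.83) and fell in BEC (-0.54 ± 0.10, adjusted p = 0.00033). Pkp1, a plakophilin of stratified epithelium, rose by 0.75 ± 0.15 in LEC and differed by 0.29 ± 0.15 in BEC (adjusted p = 0.17). Pkp3, found in most desmosomes, differed by 0.11 ± 0.12 in LEC and -0.05 ± 0.12 in BEC over the same span, though in BEC it fell by 0.69 ± 0.12 to E16.5 and then rose by 0.64 ± 0.12.

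Among the adhesion genes, Epcam, an epithelial surface adhesion molecule, was at 4.64, 4.85 and 4.69, then 4.61, 4.65 and 5.15, then 6.84, 7.48 and 7.02 in LEC. The BEC arrays had 4.63, 4.38 and 4.51, then 4.30, 4.47 and 4.29, then 5.27, 5.18 and 5.41. The isolates lay close at E14.5 and stood well apart at E18.5, and E18.5 was above the earlier ages in each. Epcam rose by 2.39 ± 0.16 (adjusted p = 1.3e-09) in LEC, and by 0.78 ± 0.16 (adjusted p = 0.00067) in BEC. Cdh1, the E-cadherin gene, rose by 1.51 ± 0.19 in LEC and differed by 0.42 ± 0.19 in BEC (adjusted p = 0.11). Cldn4, a tight junction claudin, differed between the isolates at all ages and was not called for an age change in either in the main fit. With array weights its change from E14.5 to E16.5 in BEC was called (-0.52, adjusted p = 0.011). Its LEC values were 6.52, 6.75 and 6.82, then 6.71, 6.19 and 6.77, then 6.15, 6.36 and 6.62, and its BEC values 5.55, 5.77 and 5.68, then 5.10, 5.30 and 5.13, then 5.48, 5.20 and 5.92. Every LEC array was above every BEC array. Cldn7, a claudin of many epithelia, was lower in LEC over the 3 ages by a small amount (-0.28 ± 0.09, adjusted p = 0.024), a call lost with any of 6 single arrays left out (highest adjusted p = 0.057).

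Among regulators of the epithelial state, Trp63 was at 5.14, 5.19 and 5.13, then 4.89, 5.03 and 5.43, then 6.46, 6.75 and 7.03 in LEC. The BEC values were 5.12, 5.30 and 4.97, then 4.94, 4.47 and 5.14, then 5.82, 5.68 and 5.96. Its E14.5 arrays overlapped between the isolates and its E18.5 arrays did not, and it rose by 1.60 ± 0.17 in LEC and by 0.69 ± 0.17 in BEC. Esrp1, a splicing factor that sets epithelial exon choice, was at 4.66, 4.52 and 4.55, then 4.17, 4.33 and 4.87, then 6.54, 6.55 and 6.99 in LEC. In BEC it was at 4.12, 4.34 and 4.15, then 3.95, 3.55 and 4.16, then 5.62, 4.81 and 5.22. No E18.5 array of either isolate reached down to an earlier array of that isolate, and Esrp1 rose by 2.12 ± 0.20 in LEC and 1.01 ± 0.20 in BEC. Ovol1, a zinc finger factor of differentiating epidermis, rose by 0.81 ± 0.19 in LEC and differed by 0.25 ± 0.19 in BEC. Sfn, the 14-3-3 sigma protein of keratinocytes, lay at 6.24, 6.43 and 6.37, then 5.49, 5.93 and 6.18, then 6.77, 6.57 and 7.28 in LEC, and at 6.94, 6.62 and 6.61, then 6.71, 6.43 and 6.39, then 6.84, 6.60 and 6.70 in BEC. At E14.5 and E16.5 all its LEC arrays were below all BEC arrays, the opposite order to most members, and at E18.5 they overlapped. Sfn was lower in LEC at E16.5 (-0.65 ± 0.18, adjusted p = 0.0098), a call lost without LEC or BEC E16.5 replicate 1 (highest adjusted p = 0.079). Its rise in LEC (0.53 ± 0.18, adjusted p = 0.023) was lost without LEC E14.5 replicate 1 or LEC E18.5 replicate 3 (highest adjusted p = 0.15). Grhl3, a factor of barrier formation, differed by -0.11 ± 0.15 and 0.03 ± 0.15 in LEC and BEC.

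Most late differentiation genes did not pass the test. Ivl and Lor, both of the cornified envelope, and Sbsn, a secreted protein of suprabasal cells, were called in none of the 11 comparisons of the main fit. Ivl differed by 0.44 from E16.5 to E18.5 in LEC (adjusted p = 0.053), called without some single arrays (lowest adjusted p = 0.016). Lor differed by -0.42 between LEC and BEC at E14.5, called with array weights or only the compared groups (adjusted p = 0.035 and 0.043). Sbsn was called from E14.5 to E18.5 in BEC without BEC E14.5 replicate 2 (0.42, adjusted p = 0.04). Sbsn was at 4.75, 4.996 and 5.11, then 4.80, 4.85 and 5.12, then 5.01, 4.95 and 5.20 in LEC, and at 4.71, 5.06 and 4.60, then 4.97, 4.93 and 5.30, then 5.01, 5.15 and 5.05 in BEC. Ivl lay between 3.37 and 4.36, and Lor between 3.71 and 4.64. Krtdap, a secreted keratinocyte differentiation protein, was the exception, at 4.83, 4.68 and 4.72, then 3.64, 3.94 and 4.54, then 5.42, 6.01 and 6.19 in LEC. On BEC arrays it was at 3.45, 4.21 and 3.62, then 3.98, 3.77 and 3.51, then 4.58, 4.36 and 4.70. It rose by 1.13 ± 0.23 in LEC (adjusted p = 0.0005) and by 0.78 ± 0.23 in BEC (adjusted p = 0.013), and the BEC call was lost without BEC E14.5 replicate 1 or 3 (highest adjusted p = 0.072).

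In counts, 17 of the 33 members rose and 0 fell from E14.5 to E18.5 in LEC, where 40.9% of all genes were called and 19.7% rose. In BEC, 11 rose and 1 fell, where 30.6% of all genes were called and 13.3% rose. The median member differed by 0.53 in LEC and 0.22 in BEC, and the median of all genes by 0.042 and 0.035. Macrophage markers moved over the same span in LEC, where 7 of 8 rose and 1 fell (list median 2.04), with a mean level of 6.86 to 7.18 at E14.5, 7.92 to 8.89 at E16.5 and 8.62 to 9.30 at E18.5. In BEC 2 rose and 2 fell, and the mean level was 5.31 to 5.73 over the 3 ages. Their part in the changes of the epithelial genes was not tested. The calls lay mostly after E16.5. From E14.5 to E16.5, 2 members were called in LEC, both lower (Grhl3 at -0.53 ± 0.15 and Krtdap at -0.70 ± 0.23), where 13.8% of all genes were called. Each of those calls was lost with single arrays left out, and the count was 0 to 4 over the 18 such fits. In BEC, 3 were lower (Krt18, Pkp1 at -0.57 ± 0.15 and Pkp3), where 9.76% of all genes were called. The Pkp1 call was lost with any of 4 single arrays left out, with quantile normalization again and with only the compared groups (highest adjusted p = 0.14). From E16.5 to E18.5, 17 members rose and 0 fell in LEC, where 34.4% of all genes were called and 15.9% rose. In BEC, 19 rose and 1 fell (Jup at -0.50 ± 0.10), where 32.3% of all genes were called and 15.8% rose. With all arrays at a common median, the share of higher calls among all genes moved from 46.3% to 26.6% for this step in LEC and from 49.1% to 30.5% in BEC, and the members then counted 16 higher and 1 lower in each (Krt4 in LEC and Jup in BEC). That scaling moved the median difference of all genes for this step in LEC from 0.05 to -0.07. For E14.5 to E18.5 in LEC it moved the share of higher calls from 48.2% to 37.6% (members 17 higher and 1, Krt18, lower), and for E14.5 to E16.5 in BEC from 52.2% to 66.4% (members 0 higher and 3 lower).

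**Figure D3:**
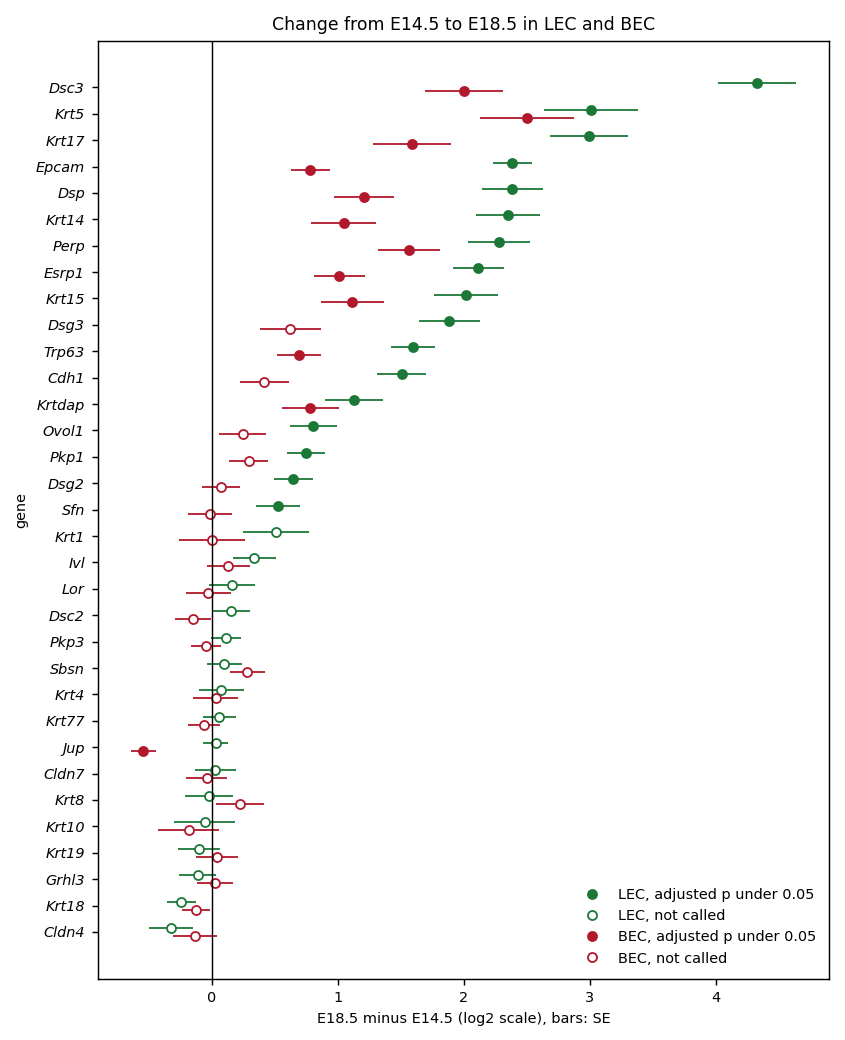
Difference between E18.5 and E14.5 (log2 scale, bars are SE) for each of the 33 members, LEC in green and BEC in red, filled where the adjusted p was under 0.05. Dsc3 (4.33 in LEC, 2.00 in BEC) and Krt5 (3.01 and 2.51) lead, the lower part of the plot gathers around 0, and Jup is at -0.54 in BEC.

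Whether the age changes differed between the isolates was tested by the interaction. For 9 members the LEC change minus the BEC change was above 0 and for 0 it was below 0, where 8.85% of all genes were called and 5.02% had a difference above 0. Dsc3 led with a difference of 2.32 ± 0.44 between the changes (adjusted p = 0.0017), followed by Epcam at 1.60 ± 0.22 (adjusted p = 8.4e-05). Krt14 (1.31 ± 0.36), Dsg3 (1.26 ± 0.34), Dsp (1.18 ± 0.34), Esrp1 (1.11 ± 0.29), Cdh1 (1.09 ± 0.27), Trp63 (0.90 ± 0.24) and Jup (0.57 ± 0.14) followed. In the first 8 of these the rise was larger in LEC, while for Jup the difference came with the fall in BEC. Of the 8 macrophage markers 6 were called here too, all above 0 (list median 2.44). Dsc3, Epcam, Cdh1 and Jup were called under every alternative tried. The other 5 lost the call with 3 to 8 of the 18 single arrays left out (highest adjusted p of each 0.056 to 0.097), and Dsp also with array weights. The count fell to 5 without LEC E14.5 replicate 1, BEC E14.5 replicate 1 or BEC E14.5 replicate 2, and to 4 without LEC E18.5 replicate 3 or BEC E18.5 replicate 2. The difference for Krt5 was 0.50 ± 0.53 (adjusted p = 0.66) and for Krt17 1.40 ± 0.44 (adjusted p = 0.055), neither past the test in the main fit. Krt17 was called with a mean-variance trend (adjusted p = 0.024), the dim filter (0.033) and only the compared groups (0.0054). It was also called without some single arrays (lowest adjusted p = 0.0019, without LEC E16.5 replicate 3).

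At each age LEC was compared with BEC. At E14.5, 5 members were higher in LEC and 0 lower, where 16.5% of all genes were called, 8.60% higher and 7.94% lower: Krt5 (1.29 ± 0.37, adjusted p = 0.02), Perp (1.08 ± 0.25), Cldn4 (1.03 ± 0.17, adjusted p = 0.00019), Krtdap (0.98 ± 0.23) and Dsg2 (0.55 ± 0.15). The calls of Krt5 and Dsg2 were each lost with any of 3 single arrays of that age left out (highest adjusted p = 0.082 and 0.08), and without BEC E14.5 replicate 3 the count was 3. With only the 6 arrays of that age in the fit, 14 members were called, 12 higher and 2 lower. The shares of all genes given here are from the fit of all 18 arrays, so that count cannot be read against them. Over all ages, 22 members were higher in LEC and 2 lower (Cldn7 and Sfn), where 37.1% of all genes were called and 18.2% were higher. The Sfn call (-0.29 ± 0.10, adjusted p = 0.032) was lost with any of 7 single arrays left out and with the mean of all its rows (highest adjusted p = 0.16). Dsg3, Trp63 and Krt17 were no longer called over the ages without the E18.5 arrays (highest adjusted p = 0.92, 0.41 and 0.2).

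At E16.5, 15 members were higher and 1 (Sfn) lower, where 25.2% of all genes were called and 13.0% were higher. The largest were Cldn4 (1.38 ± 0.17, adjusted p = 4.4e-06), Krt4 (1.30 ± 0.18), Pkp1 (1.15 ± 0.15, adjusted p = 7.5e-06) and Krt5 (1.12 ± 0.37, adjusted p = 0.033). This count rested in part on 1 array. Without LEC E16.5 replicate 3, 7 members were higher and 1 lower, and Krt5, Krt15, Krt1, Jup, Perp, Cdh1, Epcam and Esrp1 were no longer called. Without BEC E16.5 replicate 2 the count was 10. Krt4, Cldn4, Pkp1, Pkp3 and Dsp were called under every alternative tried.

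At E18.5, 19 members were higher in LEC and 0 lower, where 30.4% of all genes were called and 14.6% were higher. The largest were Dsc3 (2.81 ± 0.31, adjusted p = 6.7e-07), Epcam (1.83 ± 0.16), Perp (1.80 ± 0.25) and Krt5 (1.79 ± 0.37). All 4 basal and stress keratins were among them, as were 3 of 4 desmosomal cadherins, 4 of 5 genes of the desmosomal plaque and Perp, 3 of 4 adhesion genes (Cdh1, Epcam and Cldn4), 3 of 5 regulators (Trp63, Ovol1 and Esrp1), 1 of 3 suprabasal keratins (Krt1 at 1.20 ± 0.26) and 1 of 4 late differentiation genes (Krtdap at 1.33 ± 0.23). None of the 4 simple and periderm keratins was called. All but Ovol1 (0.69 ± 0.19, lost without BEC E18.5 replicate 2 and with array weights, highest adjusted p = 0.059) were called under every alternative tried. Lists of markers of other cells stood apart between the isolates too, though a marker's signal need not come from those cells. The mean level of 8 macrophage markers was 8.62 to 9.30 in LEC and 5.31 to 5.66 in BEC at E18.5, with 8 of 8 called higher in LEC. Within that list, Mrc1 was at 9.82 to 10.04 in LEC at E14.5, where Adgre1 was at 4.92 to 5.215. Of 8 melanocyte markers 5 were higher (mean level 6.07 to 6.34 in LEC and 5.26 to 5.40 in BEC). Among these 8, Kit (10.38 to 11.29 in LEC, 8.995 to 9.77 in BEC) and Mitf (7.18 to 8.04 and 4.87 to 5.87) stood apart at all ages. Tyr was dim and overlapped at E18.5 (3.12 to 3.59 and 3.01 to 3.44). The part of such other cells in the differences of the epithelial genes was not tested.

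**Figure D4:**
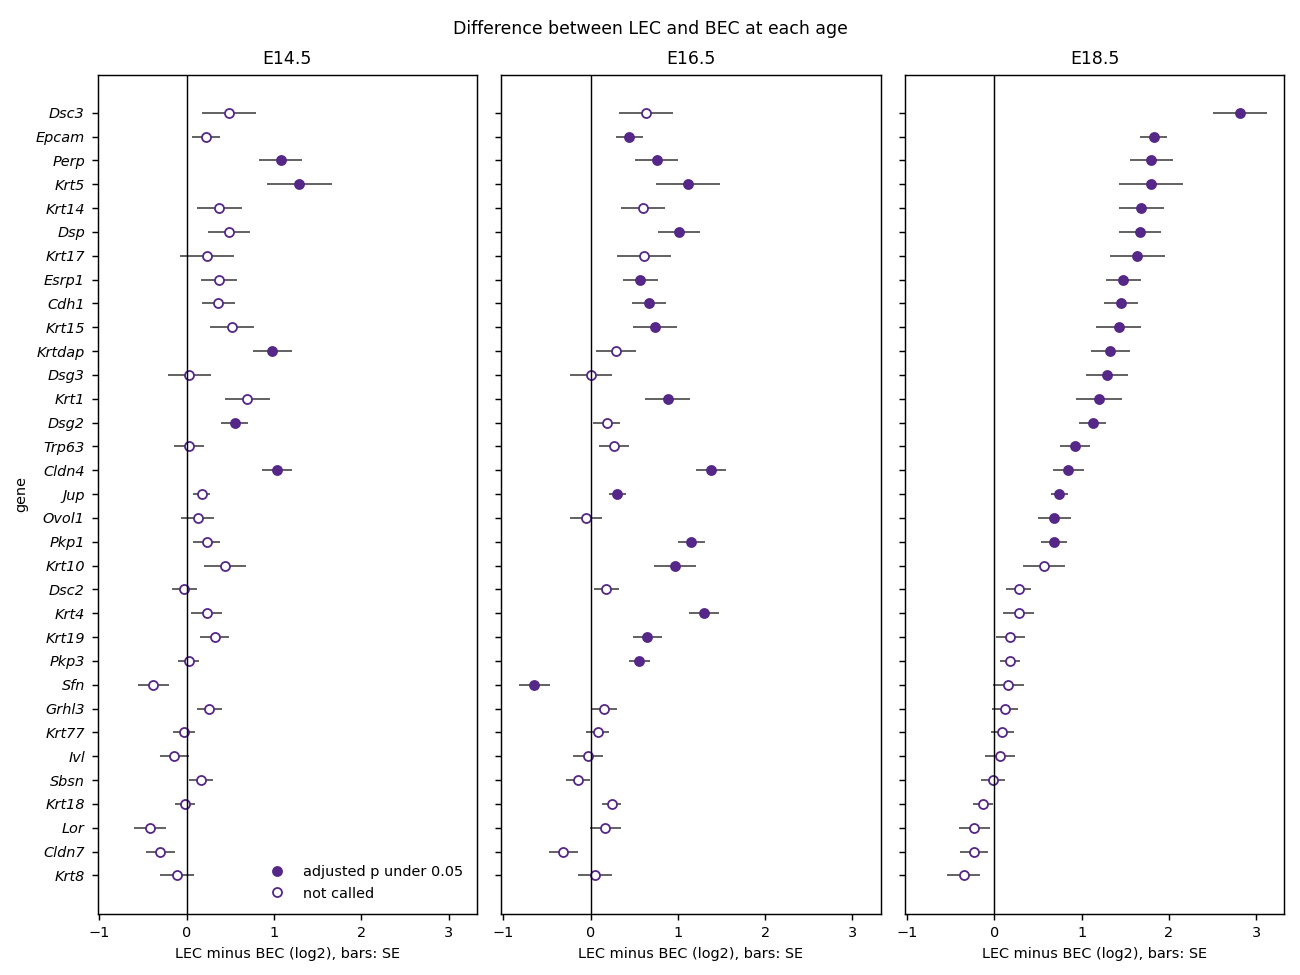
LEC minus BEC (log2 scale, bars are SE) of each member at the 3 ages, filled where the adjusted p was under 0.05. The E18.5 panel holds 19 filled points, all right of 0, against 16 at E16.5 and 5 at E14.5.

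Within groups the arrays also differed in these genes. LEC E16.5 replicate 3 had the highest value of its group for 25 of 33 members, while it was highest for 36.4% of all genes. Its Krt5 was 1.91 above the mean of the other two arrays, Krt17 1.62, Krt1 1.24, Krt15 1.16, Krt10 1.15 and Dsp 1.05, while Krt8 was 0.56 below (-0.56). Macrophage markers were also above that mean, Csf1r by 1.08, F13a1 by 0.74, Adgre1 by 0.72, Mrc1 by 0.50 and the other 4 by 0.13 to 0.48. Their mean level was 8.75, 7.92 and 8.89 on replicates 1, 2 and 3. F13a1 (10.908 and 10.835) and Lyz2 (8.514 and 8.372) were higher on replicate 1 than on replicate 3. The other markers of the list were lower on replicate 1 than on replicate 3, such as Csf1r (8.544 and 8.954). The part of macrophages was not tested. On LEC E16.5 replicate 3 the suprabasal pair Krt1 and Krt10 stood out together with the basal keratins, whereas at E18.5 the basal keratins were high without Krt10. Among LEC arrays of E18.5, replicate 3 was highest for 22 members (38.6% of all genes) and replicate 1 lowest for 21 (39.0% of all genes). In BEC at E18.5, replicate 2 was lowest for 23 members (30.0% of all genes).

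Deviations from the group mean over the 18 arrays were then correlated between members, as a description, since arrays of a group share their normalization and 6 group means were removed. The median Pearson r over 528 pairs of members was 0.26, and the median r of members with other genes 0.03. Krt5 had the highest mean r with the other members (0.48), and its closest partner was Krt15 (0.94), followed for other genes by Krt17 with Krt5 (0.91), Krt14 with Krt5 (0.90) and Krt1 with Krt17 (0.90). Cdh1 (mean r 0.45), Trp63 (0.43), Dsg3 (0.41), Dsp (0.40) and Esrp1 (0.40) varied with them. Krt8 (-0.09), Krt18 (-0.06), Ivl (-0.04), Krt77 (0.01) and Lor (0.02) had the lowest mean r.

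**Figure D5:**
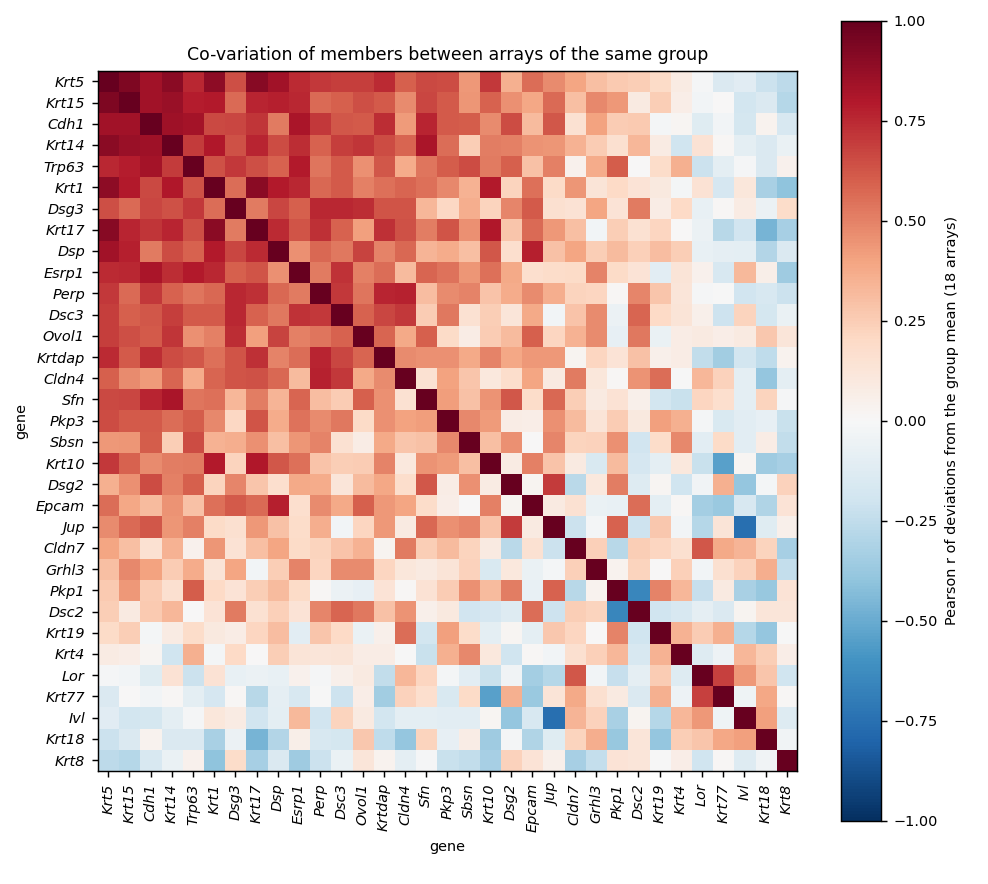
Pearson r between members (rows and columns, ordered by mean r) of their deviations from the group mean over the 18 arrays. A block from Krt5 to Esrp1 is red, with r up to 0.94, and the rows of Lor, Krt77, Ivl, Krt18 and Krt8 are pale or blue.

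Other epithelial genes were counted from 6 further lists of 78 genes, of which 74 were measured. Beside their counts from E14.5 to E18.5, 19.7% of all genes rose in LEC and 13.3% in BEC, and beside those at E18.5, 14.6% were higher in LEC and 15.9% lower. Of 13 further epithelial transcription and splicing regulators, 9 rose from E14.5 to E18.5 in LEC and 2 in BEC, and 9 were higher in LEC at E18.5. Klf4, a barrier regulator that endothelium also makes, rose by 1.81 ± 0.17 in LEC and 1.49 ± 0.17 in BEC, and the homeobox gene Barx2 rose by 1.19 ± 0.18 in LEC. Of 12 receptors and membrane proteases, 8 rose and 1 fell in LEC and 3 rose in BEC, Egfr by 1.75 ± 0.13 and Erbb3 by 1.51 ± 0.17 in LEC. In the list of basal matrix adhesion, 8 of 9 rose in LEC and 5 in BEC, led in LEC by Itgb4, the hemidesmosome integrin (2.49 ± 0.15), and Lama3 (1.49 ± 0.21). At E18.5, 2 of these 9 were higher in LEC and 4 lower, among them Lama3 (-1.74 ± 0.21), Bcam (-1.64 ± 0.17), Itga6 and Itga3, which vessels also make. Of 14 further junction genes, 5 rose in LEC and 4 in BEC, Cldn1 by 2.10 ± 0.19 and the P-cadherin gene Cdh3 by 1.68 ± 0.15 in LEC. Among 11 further keratins, 3 rose and 1 fell in LEC and 1 rose in BEC. Krt79, a keratin of hair follicle ducts, rose by 3.65 ± 0.29 in LEC and 1.75 ± 0.29 in BEC, and Krt16, which shares sequence with Krt14, rose by 0.70 ± 0.22 in LEC. Of 15 further cornified envelope genes, 4 rose in LEC and 1 in BEC. Ppl, the periplakin gene, rose by 2.30 ± 0.15 in LEC and differed by 0.15 ± 0.15 in BEC, and was already at 6.78 to 6.92 in LEC at E16.5, against 4.81 to 5.38 in BEC. Sprr1a, a cornified envelope precursor, rose by 0.64 ± 0.18 in LEC and by 0.78 ± 0.18 in BEC.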

How the data were processed

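The authors deposited log2 expression values for 18 Affymetrix Mouse Gene 1.0 ST arrays, made with RMA (background correction, quantile normalization and summary of probes) in oligo 1.54.1, per the submitters' processing notes. Samples were grouped by cell type and age from the labels. A gene was taken from the brightest of its rows that carry a single gene symbol in the platform annotation, which gave 19938 genes. RMA pulls low signals together, so differences of dim genes are understated, and depth has no meaning for arrays, whose number limits the precision.

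A mean per group was fitted with limma 3.58.1 (R 4.3.3) over all 18 arrays, with 11 contrasts, empirical Bayes moderation and Benjamini-Hochberg adjustment over all genes, called at an adjusted p under 0.05. The procedure was tested on simulated data. Whether replicates are separate animals is given only as biological replicates from 3 litters per age. The p-values set each difference against limma's moderated spread between arrays within groups, estimated over all 6 groups together. The members, role lists and comparison lists were chosen with earlier results of these data known. All measured members are named. Values on every array are given for the brightest member of each role list and the one with the largest interaction, and for Krt14, Krt4 and Trp63, chosen after their values were seen. The largest differences are named in each comparison, and 2 or more genes of each further list.

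Alternatives were the litter as a block, a mean-variance trend, a filter on dim genes, a common median, quantile normalization again, array weights, only the compared groups, the mean of all rows of a gene, leaving out each array, and leaving out E18.5. Replicate numbers were shared between LEC and BEC at each age, but the labels do not say that a number marks a litter. Deviations of same-numbered arrays correlated at -0.11 to 0.13 and those of other-numbered arrays at -0.18 to 0.16. The numbers were therefore not taken as pairs, and the litter block assumes that equal numbers mark a litter. These correlations cannot decide whether the litters matched, as the design text states. Promoters are RefSeq sequences of GRCm38.p6. The genome build behind the array annotation is not given in the sources used here.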

Additional observations from a re-analysis of the deposited data

Results flagged for a closer look

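For 9 members the change from E14.5 to E18.5 differed between LEC and BEC by the interaction test (limma, Benjamini-Hochberg), each time with LEC minus BEC above 0. The rise was larger in LEC by 2.32 ± 0.44 (SE) for Dsc3 (adjusted p = 0.0017), by 1.60 ± 0.22 for Epcam (adjusted p = 8.4e-05) and by 1.31 ± 0.36 for Krt14 (adjusted p = 0.029). It was larger by 1.26 ± 0.34 for Dsg3 (adjusted p = 0.025), 1.18 ± 0.34 for Dsp (adjusted p = 0.036) and 1.11 ± 0.29 for Esrp1 (adjusted p = 0.019). For Cdh1 the difference was 1.09 ± 0.27 (adjusted p = 0.015) and for Trp63 0.90 ± 0.24 (adjusted p = 0.025). Jup differed by 0.57 ± 0.14 (adjusted p = 0.014), with a change of 0.03 ± 0.10 in LEC and a fall in BEC (-0.54 ± 0.10). Single arrays were not tested as outliers within these groups of 3.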

How the results depend on the processing

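Of 3738 values of called members recomputed under the alternatives, 3581 kept their call, 157 lost it and 0 changed sign. These numbers leave out calls gained by members not called in the main fit. With array weights, Dsg3 was called from E14.5 to E18.5 in BEC (adjusted p = 0.022, against 0.058). Dsg2 was then called from E14.5 to E16.5 in LEC (adjusted p = 0.012, against 0.079). Members called at E14.5 (5) became 9 with array weights and 14 with only the compared groups. The shares of all genes called at E14.5 in those fits are not given here, so these counts show no change particular to the members. From E14.5 to E16.5 in LEC (2 members) the count was 1 at a common median, 5 with array weights, 5 with only the compared groups and 4 without the E18.5 arrays, and 4544 genes were called with array weights, against 2749. In BEC that step gave 5 members with array weights, against 3, and 4022 genes with array weights and 3318 without E18.5, against 1945. At E18.5 only the compared groups gave 3707 genes, against 6071. With single arrays left out, members called were 3 to 6 at E14.5, 8 to 16 at E16.5, 0 to 4 from E14.5 to E16.5 in LEC and 4 to 11 for the interaction. Genes called from E14.5 to E16.5 were then 1758 to 3090 in LEC and 850 to 2238 in BEC. The cause was not tested. With the replicate block (litter, correlation 0.015), members called were 24 over the ages, 5, 16 and 19 at the 3 ages, 17 and 12 from E14.5 to E18.5 in LEC and BEC, and 9 for the interaction. The block added 1 member (4 in all) from E14.5 to E16.5 in BEC and changed no other count of members. The labels number the replicates without saying that a number marks a litter, so which arrays share a litter is not known. The dim filter kept 23 of the 33 members, and the size of differences among the other 10 is the least certain.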

Other observations

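Markers of other epithelia and of skin cells were read from the same arrays. Over all genes, 19.7% rose and 21.2% fell from E14.5 to E18.5 in LEC, 13.3% rose and 17.3% fell in BEC, and 14.6% were higher and 15.9% lower in LEC at E18.5. The mean level of 8 lung and gut epithelium markers lay between 4.34 and 4.87 on all arrays, and from E14.5 to E18.5 none of them was called in LEC and 1 rose in BEC. The 8 Merkel cell markers lay at a mean of 4.65 to 5.21, with 1 higher in LEC at E18.5 and 1 lower. The higher one was Piezo2, which was at 9.78 to 11.01 over the 18 arrays and raised that mean. The other Merkel cell markers were at 3.21 to 5.30. Of 8 fibroblast markers, at a mean of 6.11 to 6.86, 1 was higher in LEC at E18.5 and 3 lower. Of 8 melanocyte markers, 3 rose and 0 fell from E14.5 to E18.5 in LEC, and 0 rose and 1 fell in BEC. Dct, a melanin synthesis enzyme, was at 3.77, 4.24 and 3.90, then 5.20, 3.98 and 4.93, then 5.81, 6.95 and 6.34 in LEC, and at 4.20, 4.26 and 4.32, then 3.89, 3.73 and 4.44, then 4.23, 4.79 and 4.83 in BEC. Its E18.5 arrays in LEC lay above all others. Among 8 mesenchymal regulators, such as Zeb1 and Snai2, 2 were higher and 5 lower in LEC than in BEC at E18.5, and 4 rose and 2 fell with age in each isolate.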
